A study of Arabidopsis thaliana with 20 samples.

Results

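*DOG1* (*DELAY OF GERMINATION 1*, AT5G45830) and its 4 relatives *DOGL1* (AT4G18660), *DOGL2* (AT4G18680), *DOGL3* (AT4G18690) and *DOGL4* (AT4G18650) were followed in seed-bearing siliques of Arabidopsis. They are the 5 genes of the *DOG1* family listed by identifier, out of 37184 genes in the count tables, and all 5 had counts. The samples were siliques collected 13 to 20 days after pollination from *msh-1*, a homozygous line with a T-DNA insertion in the *MUSHER* transcriptional unit next to *DOG1*, and from WT, the Col-0 accession in whose background the line was made. Each genotype had 4 libraries from separate biological replicates, and *msh-1* is 1 insertion line. Plants of both genotypes were grown untreated in a long-day greenhouse. The paper's account of its results calls the material freshly harvested seeds, while the sample labels call it siliques.

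DOG1 is a main determinant of primary seed dormancy in Arabidopsis. The protein accumulates during seed maturation, binds heme, and holds back the clade A protein phosphatases AHG1 and AHG3, which otherwise damp the response to abscisic acid (ABA). The *DOG1* transcript is alternatively polyadenylated into a short and a long form. *MUSHER* is a long non-coding RNA made from the region downstream of *DOG1*. The DOGL proteins share the DOG1 domain, which is also found in the TGA class of bZIP transcription factors, and less is known about what they do. The annotation describes *DOGL4* as an imprinted gene expressed from the maternal allele.

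Expression was measured by 3′RNA-seq, in which cDNA is primed from the polyA tail and only the 3′ end of each transcript is sequenced. A count therefore stands for a transcript end, or for an amplified copy of one if reads were counted. Levels are not divided by transcript length, and genes of different length can be set side by side. Levels are given as CPM, counts scaled to library size with TMM factors. Library totals were 2590800 to 6500907 counts in *msh-1* and 959004 to 2498295 counts in WT, so that each *msh-1* library was deeper than each WT library and depth and genotype cannot be told apart. The 5 seed maturation markers summed to 59380 to 69947 CPM in *msh-1* and to 64496 to 67489 CPM in WT, and all 5 were present in both genotypes. The 5 green tissue markers summed to 29.5 to 112.4 CPM in *msh-1* and to 16.4 to 93.2 CPM in WT. The 5 endosperm markers summed to 21208 to 37437 CPM in *msh-1* and to 15589 to 38532 CPM in WT, nearly all from *EPR1*, and the early endosperm gene *PHE1* had no count in either genotype. The 5 seed coat markers summed to at most 8.52 CPM in *msh-1* and 6.93 CPM in WT. The part of tissue makeup in the results was not tested.

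*DOG1* lies alone on chromosome 5, and the 4 relatives lie together on chromosome 4. In the RefSeq annotation of TAIR10.1, *DOG1* spans chr5:18589418-18591506 on the minus strand. *DOGL4* spans chr4:10263969-10265439 on the minus strand, followed on the plus strand by *DOGL1* at chr4:10273480-10274872, *DOGL2* at chr4:10281033-10281740 and *DOGL3* at chr4:10282762-10283803. *DOGL2* and *DOGL3* are 1021 bases apart. None of the 5 overlaps another annotated gene. The study names TAIR10, and the 4 positions on chromosome 5 that it lists as U1 sites within *MUSHER* carried the bases AGGT at the same coordinates in TAIR10.1.

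The last 60 coding bases are shown for each member, with the stop codon in capitals, so that the ends of the coding parts can be compared. The reads of 3′RNA-seq come from near the transcript end, which can lie well past the stop codon (829 bases in *DOGL1*). The bases shown are thus not always those by which the genes were counted apart. *DOG1* appears with each of its forms, which end on different stop codons. The short form ends its coding part at chr5:18590216-18590275 and the long form at chr5:18589669-18589728, both on the minus strand. The other ends lie at chr4:10273984-10274043 (*DOGL1*, plus strand), chr4:10281681-10281740 (*DOGL2*, plus strand), chr4:10283577-10283636 (*DOGL3*, plus strand) and chr4:10264043-10264102 (*DOGL4*, minus strand).
DOG1 short form: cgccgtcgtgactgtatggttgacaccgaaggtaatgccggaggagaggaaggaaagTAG
DOG1 long form: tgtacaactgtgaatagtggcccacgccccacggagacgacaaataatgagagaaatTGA
DOGL1: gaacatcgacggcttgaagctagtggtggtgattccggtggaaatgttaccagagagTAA
DOGL2: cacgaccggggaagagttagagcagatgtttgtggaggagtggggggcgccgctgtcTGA
DOGL3: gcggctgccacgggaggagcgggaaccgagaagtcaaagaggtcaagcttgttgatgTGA
DOGL4: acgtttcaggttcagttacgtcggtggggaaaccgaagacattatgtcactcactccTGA

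The annotated 3′ parts of the members were distinct in exact sequence. In the last 500 transcript bases of each member and form, 0 of 451 overlapping stretches of 50 bases occurred a second time in the genome. Shorter reads, reads aligned with mismatches, and transcript ends beyond the annotation were not covered by this check. Over whole coding sequences, *DOGL2* and *DOGL3* were the closest of 10 pairs, with 84.6% of aligned bases identical and a longest identical run of 35 bases. The other 9 pairs had 61.5% to 72.6% identity and shared no identical run longer than 18 bases. The annotation of the 3′ ends was uneven. It gives 829 bases after the stop codon of *DOGL1*, 287 after that of the short *DOG1* form, 251 after that of the long form, 167 for *DOGL3*, 74 for *DOGL4* and 0 for *DOGL2*. Transcript ends beyond the annotated end of a gene may not have been counted, and this was not tested, so differences in level between members are less secure than differences of 1 member between genotypes.

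The deposited counts give *DOG1* as a whole gene. The study's own RT-qPCR primers show how its forms differ. They share a forward primer in the first exon at chr5:18591041-18591062 (minus strand), while the reverse primer of the short form lies past its stop codon at chr5:18590156-18590181 and that of the long form past its own at chr5:18589625-18589646. Each primer matched the TAIR10.1 genome once.
DOG1 forward, both forms: tgagatccgtgtgactcagttt
DOG1 short form reverse: ttatgcaattttaaatatgacacgta
DOG1 long form reverse: ttgtcgagacgagatcatgttg

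Of the family, *DOG1* alone passed the test for a difference between *msh-1* and WT. Counts for *DOG1* were 146, 58, 67 and 93 in *msh-1* libraries 1 to 4, against 63, 105, 98 and 33 in WT libraries 1 to 4. Scaled to library size, *DOG1* was at 23.4, 22.2, 20.7 and 22.0 CPM in *msh-1* and at 48.5, 43.9, 39.2 and 36.2 CPM in WT. Every *msh-1* library was below every WT library. Groups without overlap, in either direction, were found in 4.76% of tested genes. The libraries of *msh-1* were closer to each other, with a coefficient of variation of 5.02% in *msh-1* and 12.9% in WT. The mean was 22.1 ± 1.11 CPM in *msh-1* and 42.0 ± 5.42 CPM in WT (SD, n = 4 each), so that *msh-1* kept 52.6% of the WT level. In edgeR's quasi-likelihood test over 10902 genes the log2 fold change was -0.92 ± 0.12 (SE), with a 95% interval of -1.18 to -0.67 and a Benjamini-Hochberg adjusted p of 0.00448. The exact permutation test of the 8 libraries gave p = 0.0286, the smallest value that 4 against 4 libraries allow. Any gene whose groups do not overlap reaches this value.

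Genes were called where the fold change exceeded 1.5 and the adjusted p was below 0.05. In all, 0.413% of the tested genes were called, 0.312% lower and 0.101% higher in *msh-1*, and *DOG1* was the 1 member called among the 4 that passed the filter on low counts. *DOG1* ranked 5 among all genes by p, and 177 genes had a fold change at least as large in size. The call held in each of 13 alternative settings. Without *msh-1* library 1 and WT library 4, the deepest and the shallowest, the log2 fold change of *DOG1* was -0.99 with an adjusted p of 8.92e-05. Within its genotype, each of these libraries also had the lowest level of all 5 green tissue markers. In bulk siliques, fewer cells with the transcript and less of it per cell cannot be told apart.

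*DOGL1*, the first plus-strand gene of the chromosome 4 group, was at 24.9, 22.9, 22.0 and 28.2 CPM in *msh-1* and at 19.3, 22.6, 22.0 and 32.9 CPM in WT. The groups overlapped, and the highest library of each was number 4. The mean was 24.5 ± 2.74 CPM in *msh-1* and 24.2 ± 5.97 CPM in WT (SD, n = 4 each). The log2 fold change of *DOGL1* was 0.08 with a 95% interval of -0.26 to 0.41 (edgeR, adjusted p = 0.953), an interval that leaves out the fold change of *DOG1*.

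*DOGL2*, the gene with no annotated untranslated part, was at 53.0, 55.1, 47.0 and 51.6 CPM in *msh-1* and at 55.5, 44.3, 53.6 and 44.9 CPM in WT. The ranges overlapped almost completely, with means of 51.7 ± 3.42 CPM in *msh-1* and 49.6 ± 5.77 CPM in WT (SD, n = 4 each). Its log2 fold change was 0.06 with a 95% interval of -0.18 to 0.29 (edgeR, adjusted p = 0.947).

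*DOGL4*, the imprinted member, was at 64.7, 46.7, 56.9 and 54.9 CPM in *msh-1* and at 44.7, 55.2, 52.4 and 64.6 CPM in WT. The lowest and the highest libraries of the genotypes lay at nearly the same levels, and the means were 55.8 ± 7.40 CPM in *msh-1* and 54.2 ± 8.24 CPM in WT (SD, n = 4 each). Its log2 fold change was 0.07 with a 95% interval of -0.21 to 0.34 (edgeR, adjusted p = 0.947). For *DOGL1*, *DOGL2* and *DOGL4* alike, the intervals reach from 0.835, 0.886 and 0.867 of the WT level at the low end to 1.33, 1.22 and 1.26 at the high end, against 0.441 to 0.629 for *DOG1*. A change of these 3 genes that lies within its interval could not be told from none.

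*DOGL3* was near the limit of detection. It had 5, 5, 8 and 9 counts in *msh-1* libraries 1 to 4, against 1, 3, 3 and 2 counts in WT libraries 1 to 4, and did not pass the filter on low counts. No WT library exceeded 3 counts, and each *msh-1* library was deeper. Pooled over libraries, *DOGL3* came to 1.66 CPM in *msh-1* (27 counts, 95% exact Poisson interval 1.09 to 2.41) and to 1.27 CPM in WT (9 counts, 0.580 to 2.41). The ratio of *msh-1* to WT was 1.31 with an exact interval of 0.596 to 3.16, which covers counting error only, and the exact permutation test of the CPM gave p = 0.4. A change of *DOGL3* of the size seen in *DOG1* was just outside this interval, and a rise to several times the WT level could not have been told from none.

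**Figure D1:**
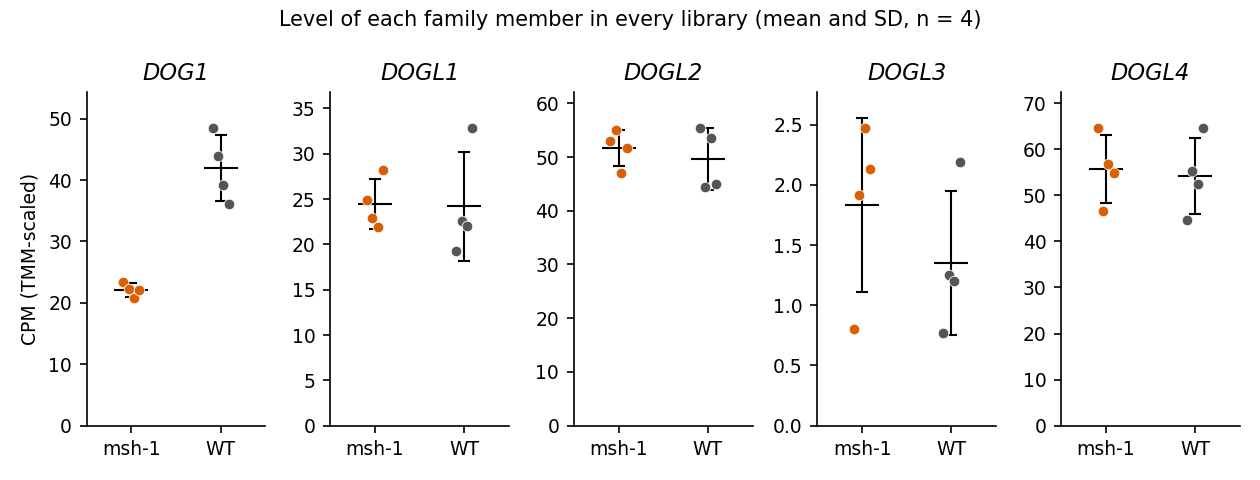
Level of *DOG1* and the 4 *DOGL* genes in CPM (y axis, a separate scale starting at 0 in each panel) in the 4 *msh-1* libraries (orange, left) and the 4 WT libraries (grey, right). Points are libraries, and the black bars give the mean and SD. The *DOG1* libraries lie at 20.7 to 23.4 CPM in *msh-1* and at 36.2 to 48.5 CPM in WT, while the libraries of the other 4 genes overlap.

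Within the family the order of the levels differed between genotypes in the place of *DOG1*. In *msh-1* the order was *DOGL4*, *DOGL2*, *DOGL1*, *DOG1* and *DOGL3*, with means of 55.8, 51.7, 24.5, 22.1 and 1.83 CPM. In WT the order was *DOGL4*, *DOGL2*, *DOG1*, *DOGL1* and *DOGL3*, with means of 54.2, 49.6, 42.0, 24.2 and 1.35 CPM. Neighbours at the top of the order did not separate. The log2 ratio of *DOGL4* to *DOGL2* within a library averaged 0.11 over 8 libraries and was positive in 5 of them (exact sign-flip permutation p = 0.266). Both stood apart from *DOGL1*. *DOGL4* was above *DOGL1* in 8 of 8 libraries, 2.26-fold on average, and *DOGL2* was above *DOGL1* in 8 of 8 libraries, 2.09-fold on average (p = 0.00781 in each exact sign-flip permutation test, the smallest that 8 libraries allow). *DOG1* lay closer to *DOGL2* and *DOGL4* in WT than in *msh-1*. Its ratio to *DOGL2* averaged 0.429 in *msh-1*, with a highest library at 0.443, and 0.846 in WT, where library 2 had 105 counts against 106. Its ratio to *DOGL4* averaged 0.400 in *msh-1*, with 4 of 4 libraries below 1, and 0.777 in WT, where library 1 was above 1, with 63 counts against 58. Within a genotype the smallest exact sign-flip permutation p is 0.125, so the test could not establish these steps in either genotype. That value was reached for both relatives in *msh-1* and for *DOGL2* in WT, while *DOGL4* in WT gave 0.25. Over all 8 libraries the mean log2 ratio of *DOG1* to *DOGL4* was -0.84 and was above 0 in 1 library (exact sign-flip permutation p = 0.0156). This value mixes the genotypes, whose means were -1.32 in *msh-1* and -0.36 in WT, and does not stand for either alone.

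The place of *DOG1* relative to *DOGL1* was opposite in the genotypes. *DOG1* was below *DOGL1* in 4 of 4 *msh-1* libraries, at 0.942, 0.967, 0.944 and 0.782 of its level, and above it in 4 of 4 WT libraries, at 2.49, 1.94, 1.77 and 1.10 times its level. In *msh-1* libraries 1 to 3 these genes differed by only a few counts, and in WT library 4 by 33 against 30 counts, so the margin there was within counting error. *DOGL2* and *DOGL3*, the pair closest in sequence and position, were the most unequal in level among adjacent genes of the family. *DOGL2* had 844 pooled counts to 27 for *DOGL3* in *msh-1*, a ratio of 31.3 (95% interval 21.3 to 47.7, counting error only), and 353 to 9 in WT, a ratio of 39.2 (20.4 to 86.5).

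Ratios between members within a library do not depend on library size or on the scaling of the libraries to each other. They were compared between genotypes for 7 pairs, with 0.5 counts added to each gene and a two-sided exact permutation test. The log2 ratio of *DOG1* to *DOGL1* was -0.14 ± 0.14 in *msh-1* and 0.81 ± 0.49 in WT (SD, n = 4 each), a difference of -0.95 (exact p = 0.0286). The log2 ratio of *DOG1* to *DOGL2* was -1.22 ± 0.06 in *msh-1* and -0.24 ± 0.18 in WT (SD, n = 4 each), a difference of -0.98 (exact p = 0.0286). The log2 ratio of *DOG1* to *DOGL4* was -1.32 ± 0.18 in *msh-1* and -0.36 ± 0.39 in WT (SD, n = 4 each), a difference of -0.96 (exact p = 0.0286). In each of these 3 pairs all *msh-1* libraries were below all WT libraries. The 3 pairs share the same *DOG1* counts, so they are not independent of each other or of the difference in *DOG1* level. The p of 0.0286 is the smallest possible and was not adjusted over the 7 pairs.

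Ratios among the relatives did not separate the genotypes. The log2 ratio of *DOGL4* to *DOGL2* differed by -0.02 (exact p = 0.943), that of *DOGL4* to *DOGL1* by 0.01 (exact p = 1), and that of *DOGL2* to *DOGL1* by 0.03 (exact p = 0.943). The ratio of *DOG1* to *DOGL3* differed by -1.11 on the log2 scale, but rests on the few *DOGL3* counts and missed the threshold (exact p = 0.0571).

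**Figure D2:**
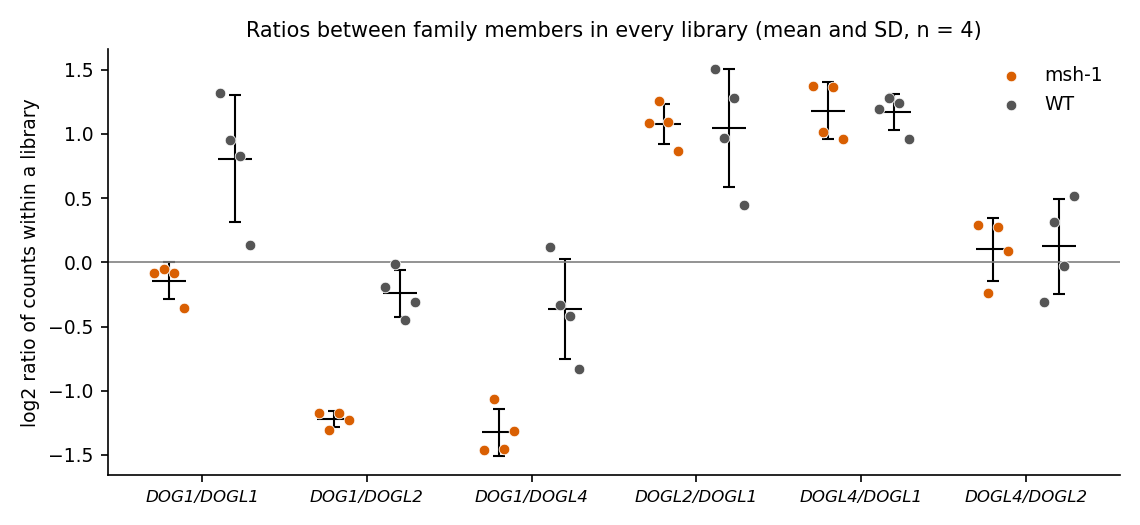
Log2 ratio of the counts of 2 family members within a library (y axis) for 6 pairs, in *msh-1* (orange, left of each pair) and WT (grey, right). Points are libraries, black bars give the mean and SD, and the horizontal line marks equal counts. The 3 ratios with *DOG1* on top lie lower in every *msh-1* library than in any WT library, and the 3 ratios among *DOGL* genes overlap between genotypes.

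As a share of all counts of the 5 genes, *DOG1* made up 14.1%, 14.9%, 13.9% and 13.9% in *msh-1* libraries 1 to 4, against 28.8%, 26.2%, 23.3% and 20.0% in WT libraries 1 to 4. The *msh-1* libraries differed by little more than 1 percentage point, and every WT library was higher. The widest exact (Clopper-Pearson) 95% interval was 14.2% to 26.9% in WT library 4, where the share rests on 33 of 165 counts. This interval covers the share of *msh-1* library 2 (14.9%) and starts just above those of the other *msh-1* libraries. The mean share was 14.2 ± 0.49% in *msh-1* and 24.6 ± 3.79% in WT (SD, n = 4 each). The summed level of the 4 *DOGL* genes was 133.8 ± 7.78 CPM in *msh-1* and 129.4 ± 10.8 CPM in WT (SD, n = 4 each), and that of all 5 genes was 155.8 ± 8.64 CPM in *msh-1* and 171.3 ± 6.32 CPM in WT.

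**Figure D3:**
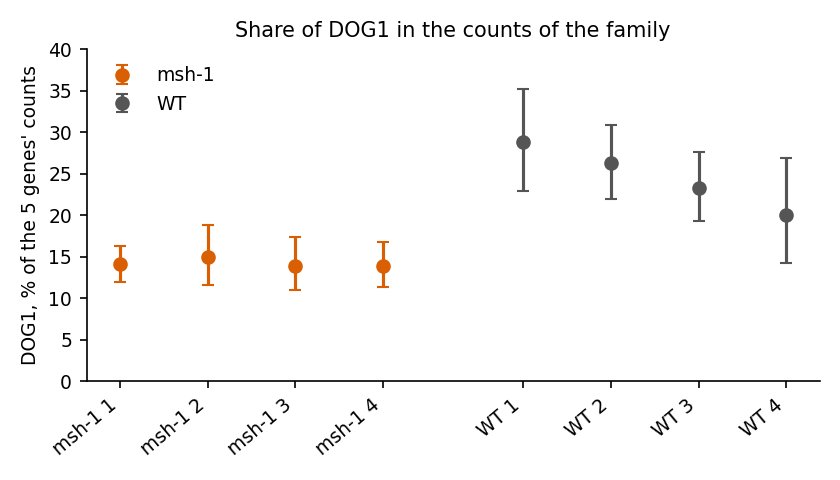
Counts of *DOG1* as a percentage of the summed counts of the 5 family members (y axis, from 0) in each *msh-1* library (orange, left) and each WT library (grey, right), with exact 95% binomial intervals that cover counting error only. The *msh-1* libraries lie between 13.9% and 14.9% and the WT libraries between 20.0% and 28.8%.

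Across the 8 libraries, *DOG1* was not positively correlated with its tested relatives. Pearson's r of the levels with *DOG1* was -0.26 for *DOGL1*, -0.13 for *DOGL2* and -0.25 for *DOGL4*. Among all tested genes these r values stood at percentiles 29.5, 39.7 and 29.7, which is not extreme. These values also carry the genotype difference of *DOG1*. In WT, *DOG1* was highest in library 1 and lowest in library 4, while *DOGL1* and *DOGL4* were lowest in library 1 and highest in library 4. In *msh-1*, *DOG1* was highest in library 1, as was *DOGL4*, and lowest in library 3, as were *DOGL1* and *DOGL2*. Their relation within a genotype was not tested. The 5 genes whose level was most like that of *DOG1* over these 8 libraries were *PIR1* (AT2G35330, r = 0.97), which encodes a RING-type E3 ligase in ABA signalling, AT2G05830 (r = 0.96), AT2G30620 (r = 0.95), a linker histone gene, AT1G55960 (r = 0.95) and AT1G09130 (r = 0.95). Such r values follow largely from the difference between genotypes, which all 8 points share. With the genotype means removed, r was 0.39 for *PIR1*, 0.43 for AT2G05830, 0.86 for AT2G30620, 0.46 for AT1G55960 and 0.65 for AT1G09130. *PIR1* itself was at 2, 0, 0 and 0 counts in *msh-1* and at 14, 23, 30 and 8 counts in WT. It was near or at the floor in *msh-1*, where *DOG1* was still present in every library.

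The genes on either side of the family were examined next, 5 on each side of *DOG1* and of the chromosome 4 group, together with those between the *DOGL* genes. Counts were given for 22 such genes. The filter on low counts was passed by 7 of them, and 0 of the 7 were called by edgeR or DESeq2. Over all tested genes edgeR called 0.413%. The direct neighbours of *DOG1* were hardly expressed. The protein kinase gene *CIPK20*, 625 bases from *DOG1* on the side of *MUSHER*, had 5, 4, 4 and 9 counts in *msh-1* and 0, 3, 6 and 0 in WT. AT5G45840, on the other side, had 9, 2, 7 and 10 counts in *msh-1* and 1, 7, 8 and 2 in WT. On chromosome 4, *MRH1* next to *DOGL4* averaged 3.44 CPM in *msh-1* and 3.72 CPM in WT, and AT4G18692 next to *DOGL3* had no count in any library. AT4G18670, between *DOGL1* and *DOGL2*, was likewise without a count, which allows at most 0.481 to 3.29 CPM depending on the library.

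Farther from *DOG1*, 3 of its 4 tested neighbours had lower values in *msh-1* with an unadjusted p under 0.05, a p that 8.48% of all tested genes reached in either direction. *PYL12* (AT5G45870), an ABA receptor gene 14891 bases away and the most highly expressed neighbour, was at 55.4, 55.8, 41.7 and 36.9 CPM in *msh-1* and at 63.9, 61.9, 64.4 and 67.9 CPM in WT. The groups did not overlap, as in 4.76% of tested genes, and the log2 fold change was -0.44 with a 95% interval of -0.73 to -0.15 (edgeR, adjusted p = 0.290). For *PYL11* (AT5G45860), the adjacent ABA receptor gene, the fitted log2 change was -0.42 (adjusted p = 0.494), and for *MEE62* (AT5G45800), a receptor-like kinase gene on the other side, it was -0.65 (adjusted p = 0.172). None of these passed the threshold. *PYL11* and *MEE62* were named after their values were seen.

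Around the chromosome 4 group, *CIPK12* averaged 41.5 ± 4.65 CPM in *msh-1* and 41.7 ± 4.74 CPM in WT (SD, n = 4 each), and its fitted log2 change was -0.04 (edgeR, adjusted p = 0.983). *PYL13*, another ABA receptor gene, and *BIN2*, a GSK3-like kinase gene, both named after their values were seen, had log2 fold changes of 0.27 and 0.05, with intervals on both sides of 0. The difference between the surroundings of *DOG1* and of the *DOGL* genes was not tested.

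**Figure D4:**
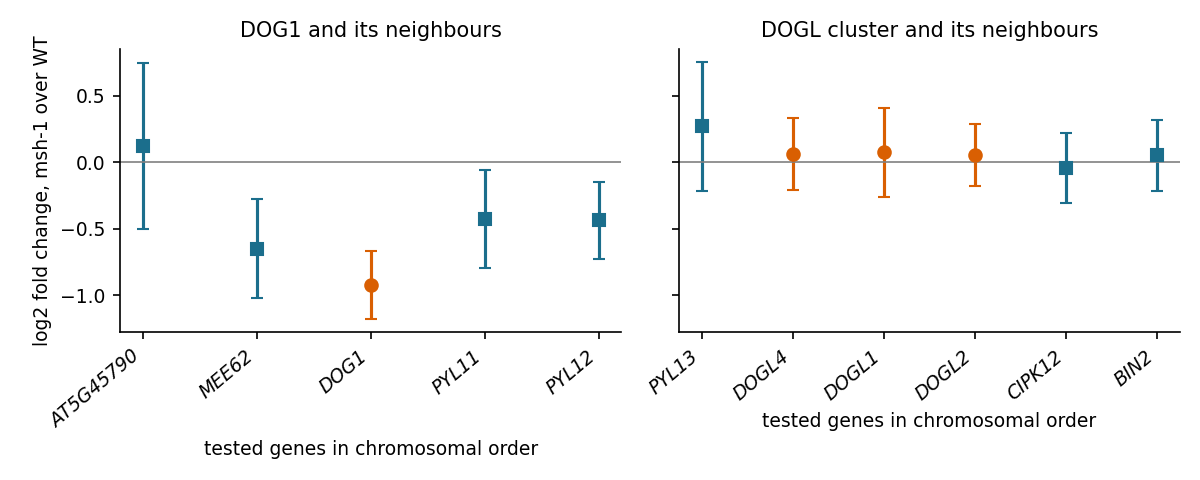
Log2 fold change of *msh-1* over WT with its 95% interval (y axis) for the tested genes around *DOG1* (left panel) and around the *DOGL* group (right panel), in chromosomal order. Orange circles are family members and blue squares are neighbours. *DOG1* stands lowest at -0.92, and the intervals of *MEE62*, *PYL11* and *PYL12* lie below 0 although none of the 3 was called. The intervals of all *DOGL* genes and of their neighbours include 0.

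The listed partners, regulators and downstream genes of *DOG1* gave no call. A list of 35 such genes, 4 of them listed as downstream, held 26 that passed the filter. Of these, 0 were called by edgeR (0 by DESeq2) and 1 had an unadjusted p under 0.05. Over all tested genes edgeR called 0.413%, and 8.48% had an unadjusted p under 0.05. At that share a list of this size would rarely hold a call. Their log2 fold changes had a median of -0.00051, with 13 above and 13 below 0, against a median of -0.01 over all tested genes. *AHG1*, whose phosphatase is bound by DOG1, was at 517 ± 25.7 CPM in *msh-1* and 500 ± 36.6 CPM in WT (SD, n = 4 each), far above *DOG1* itself. *AHG3*, the second such phosphatase, was at 170, 171, 197 and 211 CPM in *msh-1* and at 157, 141, 155 and 149 CPM in WT. The groups did not overlap, as in 4.76% of tested genes, but the log2 fold change of 0.32 did not reach the threshold (edgeR, adjusted p = 0.250).

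Transcription factors listed as acting on *DOG1* or downstream of it were at similar or very low levels. *ABI5*, a bZIP factor of the ABA response listed as downstream, averaged 556 ± 39.5 CPM in *msh-1* and 559 ± 30.0 CPM in WT (SD, n = 4 each). *ABI3*, a B3 factor of seed maturation, averaged 61.0 ± 4.66 CPM in *msh-1* and 64.4 ± 7.21 CPM in WT (SD, n = 4 each). *FUS3*, another B3 factor, averaged 4.19 CPM in *msh-1* and 3.17 CPM in WT, with a log2 fold change of 0.51 whose 95% interval ran from -0.37 to 1.40. *bZIP67*, an activator of *DOG1*, averaged 1.98 CPM in *msh-1* and 2.55 CPM in WT, and *LEC1*, which acts with it, had 1 count in *msh-1* library 1 and none elsewhere. These last genes did not pass the filter.

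Factors that form the 3′ ends of mRNAs were also listed, since *DOG1* is alternatively polyadenylated. Of 11 such genes 10 were tested and 0 were called, beside 0.413% of all tested genes. Their median log2 fold change was -0.15, and 7 of the 10 were below 0. *ESP1*, a relative of the CstF64 subunit, averaged 22.3 ± 1.85 CPM in *msh-1* and 26.1 ± 4.68 CPM in WT (SD, n = 4 each), and its fitted log2 change was -0.25 (edgeR, adjusted p = 0.676). *FY*, a component of the cleavage and polyadenylation complex, averaged 3.40 CPM in *msh-1* and 2.89 CPM in WT and was not tested.

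Of the 10 TGA factors, which carry a DOG1 domain, 9 passed the filter and 0 were called by edgeR or DESeq2. The share called by edgeR over all tested genes was 0.413%. The median log2 fold change of the 9 factors was -0.03. *TGA1*, the most highly expressed, averaged 62.2 ± 3.58 CPM in *msh-1* and 60.4 ± 6.59 CPM in WT (SD, n = 4 each), and its fitted log2 change was 0.02 (edgeR, adjusted p = 1.00). *TGA3*, named after its values were seen as the 1 factor with an unadjusted p under 0.05, averaged 12.4 CPM in *msh-1* and 17.3 CPM in WT, with overlapping groups (edgeR, adjusted p = 0.357). *PAN*, known from flower development, had no count in any library. Among the listed genes that carry a DOG1 domain, *DOG1* was thus the 1 called of 13 tested.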

How the data were processed

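Siliques of *msh-1* and WT (4 libraries each) were profiled by 3′RNA-seq. The authors aligned reads with STAR 2.7.8a on TAIR10, used BRBseqTools to separate the libraries and deposited raw whole-number counts for each gene. Which annotation and strand setting they used, and whether they counted reads or molecular identifiers, is not given in the sources used here. No row lacked a gene name. The chromatin purification samples were not analysed here.

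Counts were scaled with TMM factors and genotypes compared with edgeR 4.0.16 (R 4.3.3; quasi-likelihood test on the 10902 genes kept by its default filter, Benjamini-Hochberg adjustment). The study used DESeq2, here (1.42.0) an alternative. Genes with a fold change over 1.5 at an adjusted p below 0.05 were called. The SE is the log2 fold change over the square root of F. Single values were compared with exact two-sided permutation tests (SciPy 1.17.1). The fits were tested on simulated data. The 95% intervals of log2 fold changes come from the edgeR fit and include the spread between libraries. Poisson, binomial and pooled-ratio intervals cover counting error only, and amplified reads, if these were counted, are not independent molecules. No replicate pair was identical or within sampling noise (lowest chi-square per gene 1.58). Other alternatives were DESeq2 size factors, no filter, a replicate block, another pseudocount and libraries left out.

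Symbols, coordinates and sequences came from RefSeq TAIR10.1, in which 36899 of 37184 gene IDs matched, and primers from the study's list. Genes were named by rule: all members, called list genes, selected genes of the list of partners, regulators and downstream genes (*AHG1*, *AHG3*, *bZIP67*, *ABI5*, *LEC1*, *FUS3*, *ABI3*, *ESP1*, *FY*), the nearest and the most expressed neighbours, the most expressed TGA factor, *PIR1*, and the 5 genes most correlated with *DOG1*. The members and lists were chosen with earlier results of these data known.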

Additional observations from a re-analysis of the deposited data

Results flagged for a closer look

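Of 70 groups of 4 libraries, 4 held a library far from the other 3, where chance alone gives about 3.5. In *msh-1* library 4 the log2 ratio of *DOG1* to *DOGL1* was -0.35, against -0.09, -0.05 and -0.08 in the other *msh-1* libraries. *CIPK12* was at 34.5 CPM in *msh-1* library 1 and at 43.6 to 44.0 CPM in the other *msh-1* libraries. *PIR1* stood at 0.321 CPM in *msh-1* library 1, which is 2 counts, and *LEC1* at 0.160 CPM in the same library, which is 1 count, while the other *msh-1* libraries had none of either.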

How the results depend on the processing

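The lower level of *DOG1* in *msh-1* kept its direction and its call in 13 of 13 alternatives, with log2 fold changes of -0.97 to -0.86 and adjusted p-values of 0.000719 to 0.0467 when single libraries were left out. The number of genes called over all genes was far less stable, at 89 with DESeq2, 438 with no filter, 4 (without WT library 3) to 210 (without *msh-1* library 1) with single libraries left out, and 280 without *msh-1* library 1 and WT library 4. The cause was not tested.

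Without *msh-1* library 1 and WT library 4, the differences were -11.9 percentage points for the *DOG1* share and -1.07, -1.19 and -1.02 for the log2 ratios to *DOGL4*, *DOGL1* and *DOGL2*, where 3 against 3 libraries allow no exact p below 0.1. The mean log2 ratio of *DOG1* to *DOGL4* over the remaining libraries of both genotypes was then -0.74 (exact sign-flip permutation p = 0.0625), against -0.84 (p = 0.0156) over all 8. With single libraries left out, the share difference ran from -11.9 to -8.995 points and the log2 ratio differences to *DOGL4* and *DOGL1* from -1.11 to -0.80 and from -1.18 to -0.78, and leaving out any *msh-1* library raised the exact p to 0.0571.

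Deviations of same-numbered libraries were weakly correlated (r of -0.22, 0.15, 0.06 and -0.09). Differently numbered libraries gave r from -0.30 (*msh-1* library 2 with WT library 4) to 0.40 (*msh-1* library 1 with WT library 4). These r values cannot decide whether the numbers pair the samples. With the replicate block edgeR called 24 genes, *DOG1* among them (-0.93, adjusted p = 0.0253). The blocked differences were -10.4 points for the share and -0.96, -0.95 and -0.98 for the log2 ratios to *DOGL4*, *DOGL1* and *DOGL2*, where the smallest possible exact sign-flip p is 0.125.

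Signs changed only for values close to 0. Leaving out single libraries gave -0.0088 to 0.10 for *DOGL2*, -0.0086 to 0.14 for *DOGL4* (below 0 without *msh-1* library 1, -0.0086, and without WT library 1, -0.0083), -0.043 to 0.041 for *ABI5*, -0.031 to 0.076 for *TGA1* and -0.10 to 0.051 for *CIPK12*. *ABI5* was at 0.0015 with DESeq2 and 0.028 with no filter. Without *msh-1* library 1 and WT library 4, *TGA1* was at -0.032 and *CIPK12* at 0.041.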
